A study of Bos taurus with 3 samples.

Results

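The miR-30 family was followed through 3 small RNA libraries of bovine milk-derived extracellular vesicles (BM-EVs). Its 6 members were taken by name from the mature miRNA tables, namely bta-miR-30d, bta-miR-30a-5p, bta-miR-30f, bta-miR-30e-5p, bta-miR-30b-5p and bta-miR-30c, out of 745 miRNAs listed in at least 1 library. All 6 were listed in every library. The vesicles came from skimmed, pasteurized cow's milk bought in a shop, were precipitated with ammonium sulfate, and are labelled normal and untreated. All libraries belong to 1 condition and there was no control group, so levels and their spread are described.

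MiR-30 miRNAs are a conserved family whose mature strands share the same seed, the stretch near the 5′ end that pairs with target messenger RNAs. They differ in the bases behind the seed, and members that are close in sequence can be hard to tell apart by mapping. The hairpins lie in pairs along the genome, and hairpins of 1 primary transcript are cut into separate mature miRNAs. In mice, raised miR-30b in the mammary gland has been linked to impaired lactation, and in human cells miR-30a is known to repress the epithelial-mesenchymal transition factor SNAI1.

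Depth differed between the libraries. Each cDNA molecule carried a unique molecular index (UMI), which lets PCR copies be counted once. Libraries 1, 2 and 3 held 77225, 373239 and 102058 mature miRNA UMIs, and the smallest listed count was 11, so an unlisted miRNA had at most 10 UMIs. Shares below are percentages of these totals, with Wilson 95% confidence intervals that cover counting error only. The labels number the libraries as replicates without saying which milk sample gave each, so the spread given here may in part be technical.

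The family made up 4.75% ± 1.57 (SD, n = 3) of the mature miRNA UMIs of BM-EVs. It held 2408 UMIs or 3.12% (3.00 to 3.24) in library 1, 23320 UMIs or 6.25% (6.17 to 6.33) in library 2, and 4994 UMIs or 4.89% (4.76 to 5.03) in library 3. No interval overlapped another, so the libraries differed by more than counting error. The highest share was 2.0 times the lowest. In libraries of whole preparations, fewer vesicles or source cells with a miRNA and fewer copies in each cannot be told apart.

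Nearly all of the family was miR-30d and miR-30a-5p. For bta-miR-30d, 1038, 11835 and 2360 UMIs were counted in libraries 1, 2 and 3, which are shares of 1.34%, 3.17% and 2.31%. It ranked 10, 8 and 9 among the miRNAs of these libraries. For bta-miR-30a-5p, 1205, 10307 and 2299 UMIs gave 1.56%, 2.76% and 2.25%, with ranks of 9, 9 and 10. Both were lowest in library 1 and highest in library 2. Their means were 2.28% ± 0.914 and 2.19% ± 0.603, which differed by less than the spread between libraries.

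A long step separated this pair from the other members. Bta-miR-30f had 56, 593 and 126 UMIs, or 0.0725%, 0.159% and 0.123%. Bta-miR-30e-5p had 67, 369 and 120 UMIs, or 0.0868%, 0.0989% and 0.118%. MiR-30f was lowest in library 1 with an interval (0.0559 to 0.0941%) below those of the other libraries, while the intervals of miR-30e-5p overlapped in all libraries.

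The lowest members were bta-miR-30b-5p and bta-miR-30c. The UMIs of bta-miR-30b-5p were 30, 132 and 53, or 0.0388%, 0.0354% and 0.0519%. Those of bta-miR-30c were 12, 84 and 36, or 0.0155%, 0.0225% and 0.0353%. Both were highest in library 3, although the intervals of the libraries overlapped in every pair for either miRNA. Such overlap does not exclude a difference. For miR-30c, the exact interval of the log2 ratio of shares was positive throughout in library 3 against library 1 (0.21 to 2.26). In library 2 against library 3 it was negative throughout for miR-30c (-1.23 to -0.043) and miR-30b-5p (-1.02 to -0.066). For miR-30b-5p in library 3 against library 1 (-0.25 to 1.12) it spanned both signs. With 12 UMIs in library 1, the interval of miR-30c ran from 0.00889 to 0.0272% and the value there is imprecise. Its rank moved from 442 in library 1 to 158 in library 2.

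**Figure D1:**
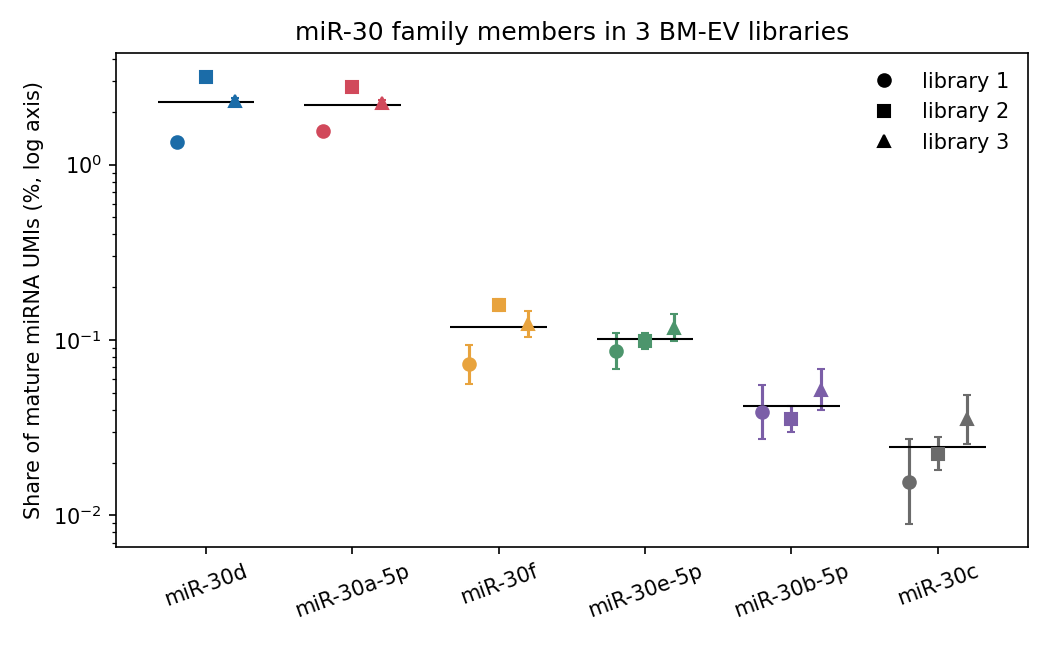
Share of mature miRNA UMIs (%, log axis) of each miR-30 member in libraries 1 to 3, with Wilson 95% intervals as bars and the mean of the 3 libraries as a line. MiR-30d and miR-30a-5p lie between 1.34% and 3.17%, and no library of the other members is above 0.159%.

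Relative spread was not even over the family. The coefficient of variation of the share over the 3 libraries was 40.2% for miR-30d, 27.5% for miR-30a-5p, 36.7% for miR-30f, 15.4% for miR-30e-5p, 20.8% for miR-30b-5p and 41.0% for miR-30c. For comparison, the median over the 435 miRNAs listed in every library was 50.8%, and it includes many with few UMIs. As shares of mature UMIs, no member varied as much as that median. This depends on the denominator. Of mature plus Rfam UMIs, miR-30d was 0.284% ± 0.211 and miR-30a-5p 0.265% ± 0.169, and no median over all miRNAs was computed there.

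The order of the members held in all 3 libraries at 3 of its 5 steps. MiR-30a-5p exceeded miR-30f by 4.25 ± 0.16 on the log2 scale, miR-30e-5p exceeded miR-30b-5p by 1.27 ± 0.18, and miR-30b-5p exceeded miR-30c by 0.84 ± 0.42 (SD, n = 3 libraries; exact two-sided sign permutation test, p = 0.25 and Benjamini-Hochberg adjusted p = 0.417 for each, over 5 pairs). A p of 0.25 is the smallest that 3 libraries allow, so no step could pass 0.05. The remaining steps changed order between libraries. MiR-30d was above miR-30a-5p in 2 of 3 libraries (mean log2 ratio 0.0073 ± 0.21, exact p = 1). The mean log2 ratio turned to -0.089 without library 2 and to -0.0079 without library 3. MiR-30f was above miR-30e-5p in 2 of 3 libraries (0.17 ± 0.48, exact p = 0.75).

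Within the family, which needs no library total, miR-30a-5p and miR-30d together held 93.8% ± 1.00 of the UMIs. The values were 93.1% (92.1 to 94.1) in library 1, 94.9% (94.7 to 95.2) in library 2 and 93.3% (92.6 to 94.0) in library 3. The interval of library 2 lay above the others. The balance between this pair moved more. MiR-30d took 43.1% (41.1 to 45.1) of the family in library 1, 50.8% (50.1 to 51.4) in library 2 and 47.3% (45.9 to 48.6) in library 3. MiR-30a-5p took 50.0%, 44.2% and 46.0%. Thus miR-30a-5p led in library 1 and miR-30d in library 2, each beyond counting error, and in library 3 their ratio of 1.03 (exact interval 0.969 to 1.09) did not settle which was higher.

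The 4 other members together held 6.85%, 5.05% and 6.71% of the family in libraries 1, 2 and 3. MiR-30f kept close to the same part, with 2.33%, 2.54% and 2.52%. MiR-30e-5p had a smaller part in library 2, with 2.78% (2.20 to 3.52), 1.58% (1.43 to 1.75) and 2.40% (2.01 to 2.87). MiR-30b-5p showed the same shape, with 1.25% (0.874 to 1.77), 0.566% (0.478 to 0.671) and 1.06% (0.812 to 1.39). For both, the interval of library 2 lay below those of libraries 1 and 3. MiR-30c held 0.498%, 0.360% and 0.721%. The effective number of members, the inverse of the summed squared parts, was 2.28, 2.20 and 2.29.

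**Figure D2:**
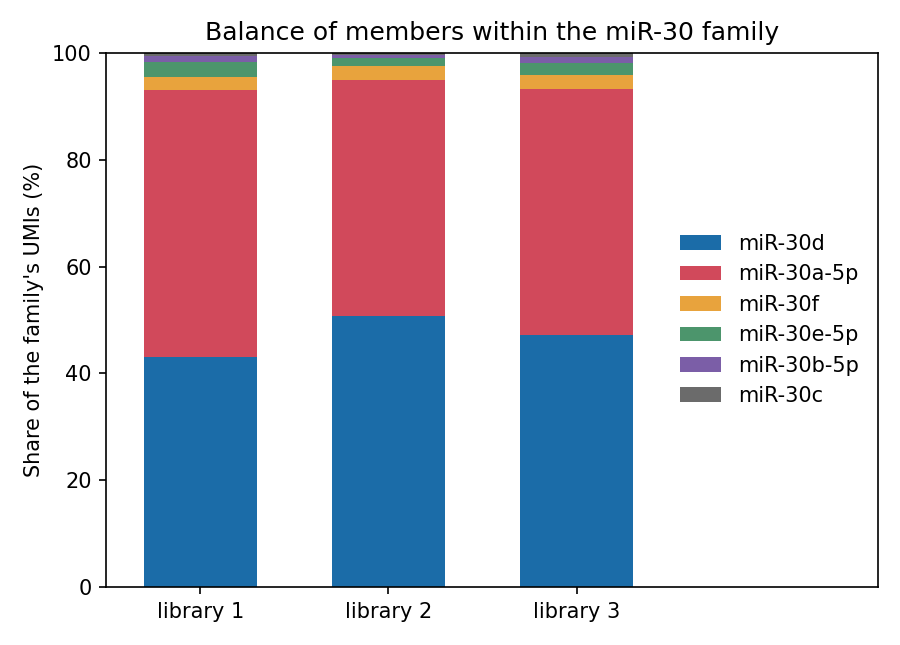
Percentage of the summed miR-30 UMIs held by each member in libraries 1, 2 and 3, as stacked bars that add up to 100. MiR-30d grows from 43.1% in library 1 to 50.8% in library 2 while miR-30a-5p goes from 50.0% to 44.2%.

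The sources used here do not say how the counting split UMIs between members close in sequence. The separate counts of members, miR-30a-5p, miR-30d and miR-30e-5p among them, are uncertain to that extent, and the family sum is less so. Which members this touches most was not checked, and ratios between members carry the same limit.

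The hairpin genes were then read in pairs of neighbours. In the RefSeq gene table of ARS-UCD2.0, whose build was not matched to the counting, MIR30D and MIR30B are adjacent on chromosome 14. MIR30C and MIR30E are adjacent on chromosome 3 within the span of NFYC, which encodes a subunit of a CCAAT-binding transcription factor. MIR30F and MIR30A lie on chromosome 9 with 1 annotated gene, LOC132346186, placed between their starts and overlapping MIR30A.

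Neighbouring hairpins gave very unequal mature counts. MiR-30d had 34.6 (exact 95% interval 24.1 to 51.5), 89.7 (75.5 to 107.3) and 44.5 (33.9 to 59.6) times the UMIs of miR-30b-5p in libraries 1, 2 and 3. The ratio of library 2 lay above the other libraries. MiR-30a-5p had 21.5 (16.5 to 28.7), 17.4 (16.0 to 18.9) and 18.2 (15.2 to 22.0) times the UMIs of miR-30f. These intervals overlapped, and the ratio ranged over 1.24-fold. MiR-30e-5p had 5.58 (3.00 to 11.3), 4.39 (3.46 to 5.64) and 3.33 (2.28 to 4.98) times the UMIs of miR-30c. These intervals overlapped as well.

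By pairs, the MIR30A and MIR30F products made up 49.2% ± 2.87 of the family and the MIR30D and MIR30B products 48.0% ± 3.49. The chromosome 3 pair made up 2.78% ± 0.732. The first and the second pair differed by less than their spread.

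The only opposite arm of a miR-30 hairpin in the tables was bta-miR-30b-3p, which is no member since its seed is another. Libraries 1 and 2 each held 21 UMIs of it and library 3 held 65, or 0.0272%, 0.00563% and 0.0637%. Its ratio to miR-30b-5p was 0.700 (0.381 to 1.26), 0.159 (0.0953 to 0.253) and 1.23 (0.840 to 1.80). The arms could not be told apart in level in libraries 1 and 3, whereas in library 2 the 3p arm was the lower. Over the libraries the ratio ranged 7.71-fold.

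**Figure D3:**
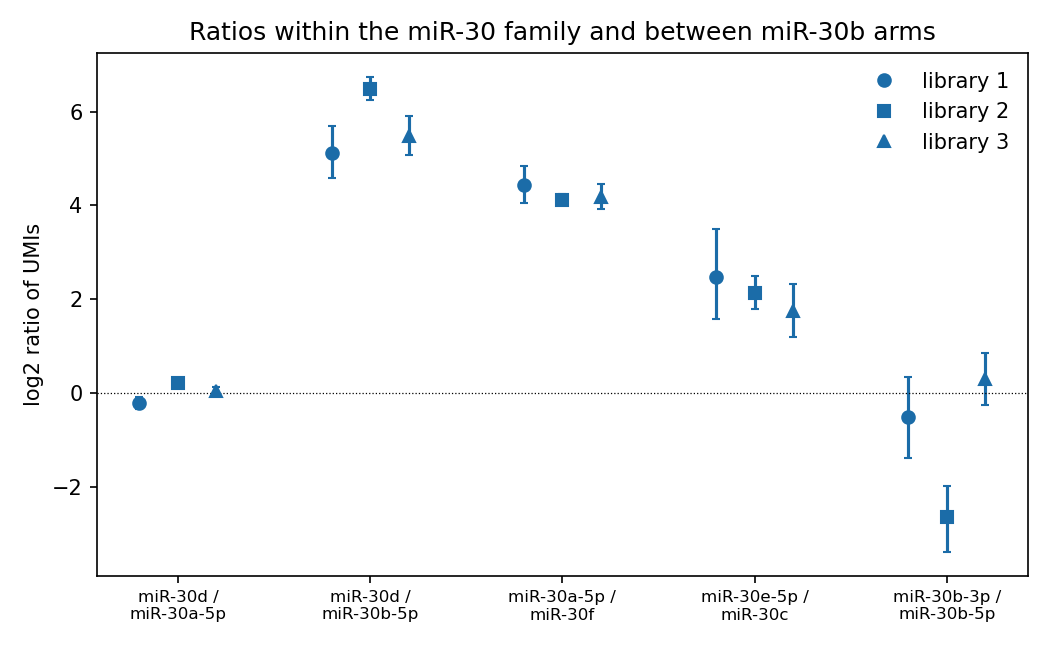
Log2 ratio of UMIs for miR-30d to miR-30a-5p, for the neighbouring hairpins, and for the arms of miR-30b, in libraries 1 to 3, with exact 95% intervals as bars. The ratio of miR-30a-5p to miR-30f stays between 4.12 and 4.43, while the arm ratio of miR-30b runs from -2.65 to 0.29.

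Libraries 1 and 2 were set side by side, since the family differed most between them. The pair was thus chosen by the family's own shares. High ratios of its main members, and their place against all miRNAs, follow in part from that choice and are a description. Among the 435 miRNAs listed in every library, the median log2 ratio of the share in library 2 to that in library 1 was -1.39. The 6 members had a median of 0.68, and all 6 lay above the median of all miRNAs. Listing needed at least 11 UMIs in each library, which is a higher share in library 1 (77225 UMIs) than in library 2 (373239 UMIs). Rare miRNAs therefore entered only where their share in library 1 was high enough, which tends to lower the median of all miRNAs. Libraries 1 and 2 are single libraries, and no test of the difference was made.

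MiR-30d had a log2 ratio of 1.24 (exact 95% interval 1.15 to 1.33), miR-30f 1.13 (0.73 to 1.55) and miR-30a-5p 0.82 (0.74 to 0.91). Of the 435 miRNAs, 5 had a higher ratio than miR-30d and 6 a higher ratio than miR-30f. The ratios of miR-30c, 0.53 (-0.35 to 1.54), miR-30e-5p, 0.19 (-0.19 to 0.59), and miR-30b-5p, -0.14 (-0.72 to 0.49), had intervals that include 0. This depends on the scaling. With totals scaled by TMM, by DESeq2 size factors or by mature plus Rfam UMIs, the intervals of all 6 members lay above 0, and miR-30b-5p turned from -0.14 to 1.14, 1.21 and 1.05. The TMM and DESeq2 factors came from the 435 miRNAs listed in every library, so the listing limit bears on them too. A share was called higher where the Wilson intervals of the libraries did not overlap. By that rule 3 of 6 members (miR-30d, miR-30a-5p and miR-30f) were called higher in library 2 than in library 1, against 9.20% of the 435 miRNAs. No member was called higher in library 1 than in library 2, against 66.4% of the miRNAs. Both percentages are over miRNAs of all counts, and 346 of the 435 had 11 to 99 UMIs in library 3. At a given ratio, intervals are wider at low counts, so 9.20% is not the share for miRNAs of like count. That share was not computed.

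Over all miRNAs the ratio was higher in the more abundant, so members are given beside miRNAs of like count. The median was -1.57 for the 346 miRNAs with 11 to 99 UMIs in library 3, -0.24 for the 77 with at least 100 but under 1000, and 0.42 for the 12 with 1000 and more. The ranges include the members themselves, and the 12 also include let-7a-5p, let-7b, let-7c, let-7f and miR-3596. The 0.42 thus depends in part on these and on miR-30d and miR-30a-5p. Each member lay above the median of its own range, by 0.82 for miR-30d, 0.41 for miR-30a-5p, 1.37 for miR-30f, 0.43 for miR-30e-5p, 1.44 for miR-30b-5p and 2.11 for miR-30c. The listing limit bears most on the lowest range, so the distances of miR-30b-5p and miR-30c may be too large. In the range of miR-30f, none of the 77 miRNAs had a higher ratio. MiR-30b-3p, at -2.27 (-3.22 to -1.33), lay 0.70 below the median of its range.

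**Figure D4:**
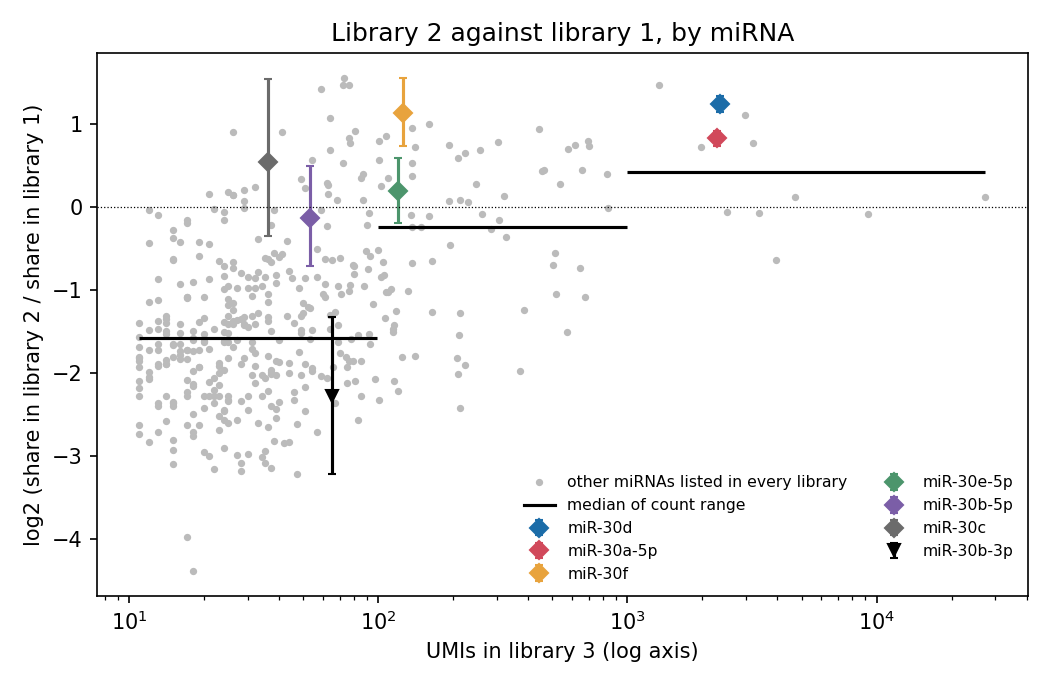
Log2 ratio of the share in library 2 to that in library 1 against the UMIs in library 3 (log axis), for the 435 miRNAs listed in every library, with the miR-30 members and miR-30b-3p in colour or black with exact 95% intervals. The horizontal lines are medians of -1.57, -0.24 and 0.42 for the 3 ranges of count, and every member lies above its line while miR-30b-3p lies below.

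The other library pairs were read in the same way. In library 3 against library 1, all 6 members had log2 ratios above 0, from 0.42 for miR-30b-5p to 1.18 for miR-30c, with a median of 0.65 beside -0.11 for all miRNAs. MiR-30d, miR-30a-5p and miR-30f were called higher there, 3 of 6 members against 12.4% of the 435 miRNAs. The exact interval of miR-30c (0.21 to 2.26) also lay above 0, although its Wilson intervals overlapped. Those of miR-30b-5p (-0.25 to 1.12) and miR-30e-5p (-0.0045 to 0.89) included 0. In library 2 against library 3 the members split. MiR-30d (0.46), miR-30f (0.36) and miR-30a-5p (0.29) lay above 0, and miR-30e-5p (-0.25), miR-30b-5p (-0.55) and miR-30c (-0.65) lay below, beside a median of -1.13 for all miRNAs. The exact intervals of miR-30b-5p (-1.02 to -0.066) and miR-30c (-1.23 to -0.043) lay below 0, and that of miR-30e-5p (-0.55 to 0.059) included 0. The split also depends on the scaling. All 6 were above 0 with TMM or DESeq2 size factors and 5 of 6 with mature plus Rfam UMIs. There 2 of 6 members, miR-30d and miR-30a-5p, were called higher in library 2, against 7.36% of the miRNAs. Beside miRNAs of like count, all 6 members were above the median of their range in library 3 against library 1, by 0.27 to 1.37. In library 2 against library 3, 5 of 6 were above it, by up to 0.75, where miR-30a-5p lay 0.041 above, and the difference of miR-30e-5p was -0.046. The comparisons share libraries and are no independent repeats. The 12.4% and 7.36% are likewise over miRNAs of all counts. The listing limit described for libraries 1 and 2 bears on the medians of library 2 against library 3 too, and on the TMM and DESeq2 factors.

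Other miRNAs followed the family over the 3 libraries. The profile was the log2 share in each library relative to its mean, which for the family was -0.55, 0.45 and 0.10 in libraries 1, 2 and 3. Of 56 other miRNAs that reached 100 UMIs in each of the libraries, the 5 at the smallest Euclidean distance were miR-125b (0.10), miR-103 (0.185), miR-25 (0.191), miR-151-3p (0.215) and miR-107 (0.236), where the median distance was 0.788. The shares of miR-125b were 1.68%, 3.61% and 2.90%. A profile over 3 libraries has few degrees of freedom and is a description only.

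The miR-30 family was set beside 3 lists that were picked for a like share, so their nearness in level is given by the choice and the values are a description. It was higher than the miR-125/99/100 list in 2 of 3 libraries, by 0.124 ± 0.346 percentage points. It was higher than the list of miR-148a, miR-152 and miR-148b in 2 of 3, with a mean difference of -0.498 ± 1.48 points, and than the miR-200 list in 1 of 3, with -0.337 ± 0.600 points. The miR-148a list leaves out miR-148d and miR-148c, with 645 and 15 UMIs in library 3 beside 4709 for miR-148a. The level and balance of that list hold for the 3 named miRNAs only and would differ with them added. In balance, the leading member held 47.0% of the miR-30 family, beside 58.4% for miR-125b, 64.7% for miR-200c and 98.6% for miR-148a in their lists. These differences in balance were not tested. From library 1 to library 2 the share of the miR-30 family was 2.0-fold, that of the miR-125/99/100 list 1.92-fold, that of the miR-200 list 1.502-fold and that of the miR-148a list 1.08-fold.

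Markers of possible source cells were read in the same libraries. The 10 miRNAs of a mammary epithelial list, among them miR-200c and miR-148a, were all listed in at least 1 library and 9 in every library. They summed to 9.74%, 12.3% and 9.83%. The 7 leukocyte miRNAs, such as miR-142-5p and miR-223, of which 5 were listed in every library, summed to 0.251%, 0.207% and 0.384%. In the erythroid list, miR-451 and miR-144 were not listed, and miR-486 gave 0.0324%, 0.00991% and 0.0304%. The muscle list (3 of 4 listed), miR-122 of liver and the neural list each stayed at or under 0.0311% in every library. The epithelial sum was highest in library 2, as the family was, and the leukocyte sum was lowest there. Members of both lists went either way in the log2 ratio of library 2 to library 1. In the epithelial list miR-200c had 0.77 and miR-205 -0.63, and in the leukocyte list miR-146b had 0.33 and miR-150 -1.54. Of all 435 miRNAs, 66.4% were called higher in library 1 than in library 2. The part of source cells in the result was not tested.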

How the data were processed

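Small RNA of BM-EVs was sequenced in 3 libraries of 1 condition, each made from 100 ng of total RNA with a kit that adds UMIs. The authors trimmed adapters, filtered low-quality reads and mapped the remainder against miRBase before Rfam. Tools in the processing notes of the submitters are cutadapt 2.7, Bowtie 1.2.2 and FastQC. The deposited values are raw UMI counts, 1 table per library for mature miRNAs and 1 for Rfam sequences. Only entries with at least 11 UMIs are listed. Not given in the sources used here are the database versions, mismatches, strand and handling of multiple matches.

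Libraries were numbered by the replicate in the labels. Shares, Wilson 95% intervals, exact binomial intervals of count ratios and exact sign permutation tests within libraries were computed in Python 3.11.15 with pandas 2.3.3, numpy 2.4.6 and scipy 1.17.1, and plots were drawn with matplotlib 3.10.9. Intervals cover counting error only. Scaling factors for the alternatives came from edgeR 4.0.16 (TMM) and DESeq2 1.42.0 in R 4.3.3, over the miRNAs listed in every library. The scripts were tested on simulated counts with neither the listing limit nor added spread between libraries, so that test does not cover either. Named miRNAs were the members, the opposite arm, the 5 nearest profiles and leading members of lists. Members and lists were chosen with earlier results of these data known. Alternatives were leaving out each library, pooled UMIs, other denominators, scalings and a minimum of 30 UMIs. Mature sequences were not used here.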

Additional observations from a re-analysis of the deposited data

How the results depend on the processing

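The share of the family, 4.75%, was 0.582% of mature plus Rfam UMIs and 9.55% of mature UMIs without let-7 and miR-3596, both by construction of the denominator. It stayed within 1 SD when UMIs were pooled (5.56%), when totals were scaled with TMM (5.72%) or DESeq2 size factors (5.74%), with a minimum of 30 UMIs in every library (5.08%, 5 members left), and when 1 library was left out (4.01 to 5.57%), which cannot move a mean of 3 by 1 SD. That covers the mean only, since the relative spread between libraries was wider with scaled totals and with mature plus Rfam UMIs. Of mature plus Rfam UMIs, the family was 0.221%, 1.01% and 0.517% in libraries 1, 2 and 3. The 93.8% held by miR-30a-5p and miR-30d ranged from 93.2 to 94.1% without 1 library, and was 94.5% with pooled UMIs. The mean log2 ratio of miR-30d to miR-30a-5p, 0.0073, ranged from -0.089 (without library 2) to 0.12 (without library 1), was -0.0079 without library 3 and 0.14 with pooled UMIs, so it has no stable sign. The TMM and DESeq2 factors came from miRNAs listed in every library, so the listing limit bears on them. Scaling with TMM, with DESeq2 size factors or by all UMIs shifted the median log2 ratio of library 2 to library 1 by 1.27, 1.34 and 1.19. All 6 members were then above 0. Their distance to the median could not change, since each scaling shifts every log2 ratio of a library pair by the same amount. Of 81 values for single members, pairs and miR-30b-3p under alternatives, 48 kept within their spread or direction and 33 moved with a denominator or scaling. Of these, 3 changed sign, the ratios of miR-30b-5p (from -0.14 to 1.14, 1.21 and 1.05), whose interval had included 0. The 48 include mean shares without 1 library, which could not move by 1 SD. Depth limits miR-30c, at 12, 84 and 36 UMIs. No paired analysis was possible because 1 group leaves no groups to pair, and members were compared within libraries instead.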
